A study of Mus musculus with 8 samples.

Results

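Heparan sulfate genes are described here in mouse embryonic stem cells (mESCs) with and without Pcgf5, before and during neural differentiation. The 37 genes, of 24849 genes in the deposited tables, were picked by name and role, with earlier results from these same samples known: 5 genes of linker synthesis, 5 of chain polymerisation, 5 of N-sulfation and epimerisation, 8 of O-sulfation, 2 endosulfatases, 6 glypicans, 4 syndecans and 2 secreted core proteins. Of these, 31 had a mean over 1 FPKM (fragments per kilobase of transcript, scaled to the mapped fragments of the sample) in at least one condition and entered the test. The other 6, Extl1, Ndst3, Ndst4, Hs3st2, Hs6st3 and Gpc5, stayed below that level in every condition and were not tested. Because the genes were chosen with results known, the counts below describe this list, and the adjusted p-value of each gene comes from a fit over all 13214 tested genes.

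Heparan sulfate is a sugar chain that is built in the Golgi on a linker of xylose, galactose and glucuronic acid attached to a core protein. The EXT enzymes lengthen the chain, and N-deacetylase/N-sulfotransferases, an epimerase and O-sulfotransferases then modify it. Core proteins either carry a lipid anchor (glypicans), span the membrane (syndecans) or are secreted (agrin, perlecan). The sulfation pattern of the chain sets which growth factors bind it, among them FGFs, WNTs and BMPs, and mESCs that cannot make sulfated chains are known to exit self-renewal poorly.

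All samples were of the MPI-II mESC line (129S2/SvPas), and each of the 4 conditions held 2 samples: wild type at day 0, Pcgf5-/- at day 0, wild type at day 6 and Pcgf5-/- at day 6. Day 0 cells grew on a feeder layer in serum medium with LIF and the 2i inhibitors, and day 6 cells had been moved to N2B27, a serum-free medium that lets mESCs become neural. Pcgf5-/- cells, which lack a subunit of a Polycomb repressive complex, had been made with TALENs and drug selection, and the number of clones behind the 2 samples is not given in the sources used here. The study describes its samples as biologically independent, while the labels do not say what separates the samples of a condition, and the p-values measure the spread between these samples. The comparisons share samples, as the wild-type day 6 samples enter both the change over days and the genotype difference.

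Pcgf5 itself was 3.63 and 5.18 FPKM in wild type and 1.28 and 1.84 in Pcgf5-/- at day 0 (limma, log2 fold change -1.07, adjusted p = 0.105), and 5.06 and 9.16 against 0.457 and 0.669 at day 6 (log2 fold change -2.33, adjusted p = 0.00421). The files hold no read counts, and the low FPKM values put the relative depth of the 8 samples within 1.29-fold. Over 8 pluripotency markers, the summed level at day 6 was 170 and 393 FPKM in wild type and 1027 and 1106 in Pcgf5-/-, while 6 neural progenitor markers summed to 282 and 283 in wild type and to 94.6 and 111 in Pcgf5-/-. All 8 pluripotency markers were higher and all 6 neural progenitor markers lower in Pcgf5-/- at day 6 by limma. Of 6 neuron markers 4 were lower. The 8 fibroblast markers of the feeder layer summed to 168 and 254 FPKM in wild type and to 159 and 564 in Pcgf5-/- at day 0, with the high value in replicate 2, and at day 6 to 22.7 and 33.2 FPKM in wild type and to 12.97 and 14.9 in Pcgf5-/-. None of the 8 passed between the genotypes at day 6, and Lum and Twist2 were under 1 FPKM in both. In such bulk samples, fewer cells of a type and less RNA per cell cannot be told apart.

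Promoter sequence was at hand for 28 of the 37 genes (33 start sites, RefSeq on GRCm38.p6). The 250 bases before the start are printed for Hs2st1, Gpc2 and Sdc1, which were lower in Pcgf5-/- at day 6, and for Sdc4, the only listed gene that fell in wild type. They are given 5′ to 3′ on the strand of the gene, with each CG dinucleotide in capitals: Hs2st1 at chr3:144570217-144570466 (minus strand), Gpc2 at chr5:138279938-138280187 (minus), Sdc1 at chr12:8771146-8771395 (plus) and Sdc4 at chr2:164443189-164443438 (minus).
Hs2st1: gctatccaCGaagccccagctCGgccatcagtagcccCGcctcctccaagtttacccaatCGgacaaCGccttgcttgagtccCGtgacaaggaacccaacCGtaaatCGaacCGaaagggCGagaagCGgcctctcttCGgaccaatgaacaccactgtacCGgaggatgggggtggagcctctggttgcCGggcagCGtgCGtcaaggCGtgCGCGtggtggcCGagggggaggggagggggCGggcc
Gpc2: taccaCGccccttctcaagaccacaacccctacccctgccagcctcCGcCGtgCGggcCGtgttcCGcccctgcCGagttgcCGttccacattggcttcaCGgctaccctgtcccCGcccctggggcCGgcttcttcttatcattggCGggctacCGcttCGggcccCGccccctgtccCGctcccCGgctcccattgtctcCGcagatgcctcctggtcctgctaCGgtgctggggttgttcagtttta
Sdc1: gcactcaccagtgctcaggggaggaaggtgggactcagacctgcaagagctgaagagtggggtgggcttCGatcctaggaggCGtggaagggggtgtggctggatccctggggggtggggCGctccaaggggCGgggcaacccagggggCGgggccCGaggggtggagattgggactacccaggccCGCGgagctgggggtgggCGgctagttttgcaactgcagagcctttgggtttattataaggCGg
Sdc4: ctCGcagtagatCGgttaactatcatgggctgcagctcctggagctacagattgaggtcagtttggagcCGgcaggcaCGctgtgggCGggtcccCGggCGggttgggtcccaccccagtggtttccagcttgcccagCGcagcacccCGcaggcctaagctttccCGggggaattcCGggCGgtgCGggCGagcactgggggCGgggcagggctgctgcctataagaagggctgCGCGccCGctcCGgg
These stretches hold 21, 19, 10 and 19 CG dinucleotides for Hs2st1, Gpc2, Sdc1 and Sdc4. Over the 33 promoters the median was 18, against 15 over 12724 promoters of tested genes and 6 over all 32851 promoters. At least 10 CG were present in 26 of 33 (78.8%), against 71.3% of the promoters of tested genes and 37.8% of all. The GC box letters GGGCGG, which themselves hold a CG, were found on either strand in 20 of 33 (60.6%), against 57.9% of the promoters of tested genes and 32.7% of all, and in each of the 4 printed. CANNTG, which reads the same on both strands, was in 15 of 33 (45.5%), against 57.6% and 66.2%, and was found in the Gpc2 and Sdc1 stretches. TATAAA was in 3 of 33 (9.09%), against 6.41% and 12.4%, and ACAAAG in 2 of 33 (6.06%), against 12.4% and 16.5%, in none of the 4 printed. Of the 4 printed, Hs2st1, Gpc2 and Sdc4 lay above the median of the promoters of tested genes and Sdc1 below it.

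FPKM is scaled per length, so levels may be set side by side between genes. Sulf2, an endosulfatase that trims 6-O-sulfates from finished chains, had the highest mean FPKM of the 37 genes in each condition (53.7, 51.7, 85.4 and 74.4 FPKM in wild type day 0, Pcgf5-/- day 0, wild type day 6 and Pcgf5-/- day 6). At day 0 in wild type it was followed by the syndecan Sdc4 (49.8 ± 30.9, SD, n = 2) and the 6-O-sulfotransferase Hs6st1 (36.2 ± 7.55, SD, n = 2), whose ranges overlapped. At day 6 in wild type it was followed by Gpc3 (40.1 FPKM) and then by Hs6st1, Sdc1 and Ext1, whose ranges from 29.9 to 34.4 FPKM overlapped. Summed over all 37 genes, the level was 317 and 383 FPKM in wild type and 336 and 383 in Pcgf5-/- at day 0, and 512 and 535 in wild type and 408 and 442 in Pcgf5-/- at day 6. The sums of the genotypes overlapped at day 0 and were apart at day 6. The 6 genes that were not tested ranged from 0 to 0.858 FPKM, and Gpc5 was listed at 0 in all samples but Pcgf5-/- day 6 replicate 1 (0.0411 FPKM).

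**Figure D1:**
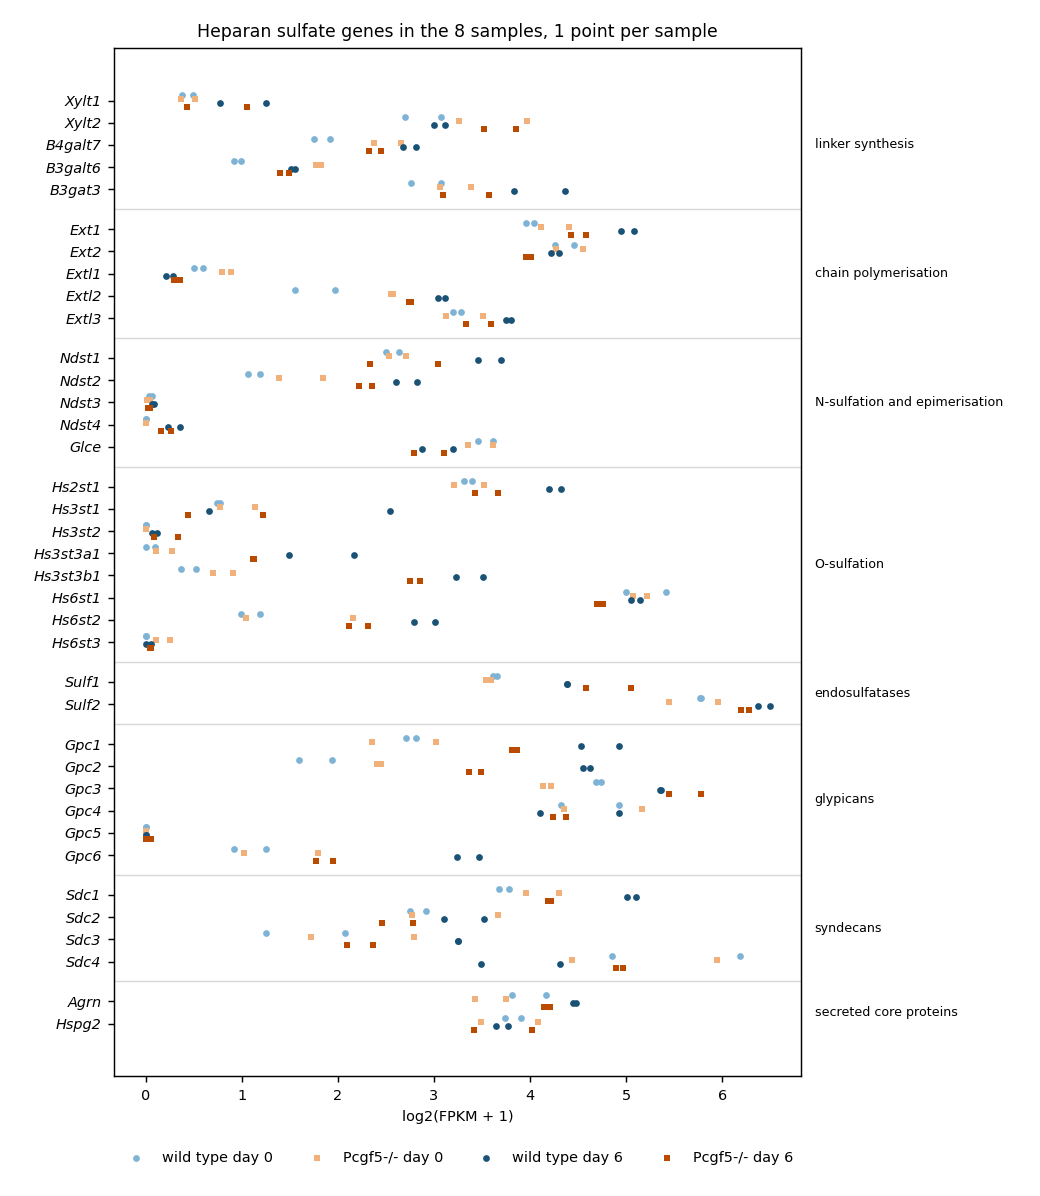
Level of the 37 heparan sulfate genes, as log2(FPKM + 1) on the x axis, in each of the 8 samples (circles wild type, squares Pcgf5-/-, pale day 0, dark day 6), grouped by role. Wild-type day 6 samples of Gpc2 (22.4 and 23.7 FPKM), Gpc6 (8.48 and 10.04) and Sdc1 (31.3 and 33.4) lie to the right of all 6 other samples.

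Most of the tested genes rose over the 6 days in wild type. By limma on log2(FPKM + 1), 20 of 31 rose and 1 fell, where 50.5% of all tested genes were called, 34.2% higher and 16.2% lower. The samples of the days were apart for 23 genes higher at day 6 and 2 lower, against 49.5% and 28.1% of all tested genes. The median log2 fold change of the 31 genes was 0.84, against 0.22 over all tested genes. In Pcgf5-/- 9 of 31 rose and none passed as lower, against 32.3% of all tested genes called (21.9% higher, 10.4% lower), and the median was 0.15 against 0.13 over all tested genes. At an unadjusted p under 0.05 there were 12 of 31 genes, in both directions together, against 44.3% of all tested genes. The samples of the days were apart for 11 genes higher at day 6 and 4 lower, against 43.3% and 25.1% of all tested genes. Of the 20 genes that rose in wild type, 8 also rose in Pcgf5-/- and 12 did not pass there. The matching share over all tested genes that rose in wild type was not computed, so this split describes the list alone. Agrn was the gene past the threshold in Pcgf5-/- alone. Quantile normalization and centring on the median moved the median of all tested genes in wild type from 0.22 to 0.00 and -0.15. The wild-type count then became 16 higher and 2 lower under the former and 14 higher and 3 lower under the latter. The share of higher among all called genes went from 67.8% to 51.3% and 39.7%. In Pcgf5-/- the count became 6 higher and 3 lower, and 6 higher and 4 lower, with the share of higher among all called genes at 67.9%, 53.1% and 48.1%. Without Pcgf5-/- day 6 replicate 1 or 2, the number that rose in Pcgf5-/- was 5 and 4, and without Pcgf5-/- day 0 replicate 1 it was 5 with 1 gene lower.

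**Figure D2:**
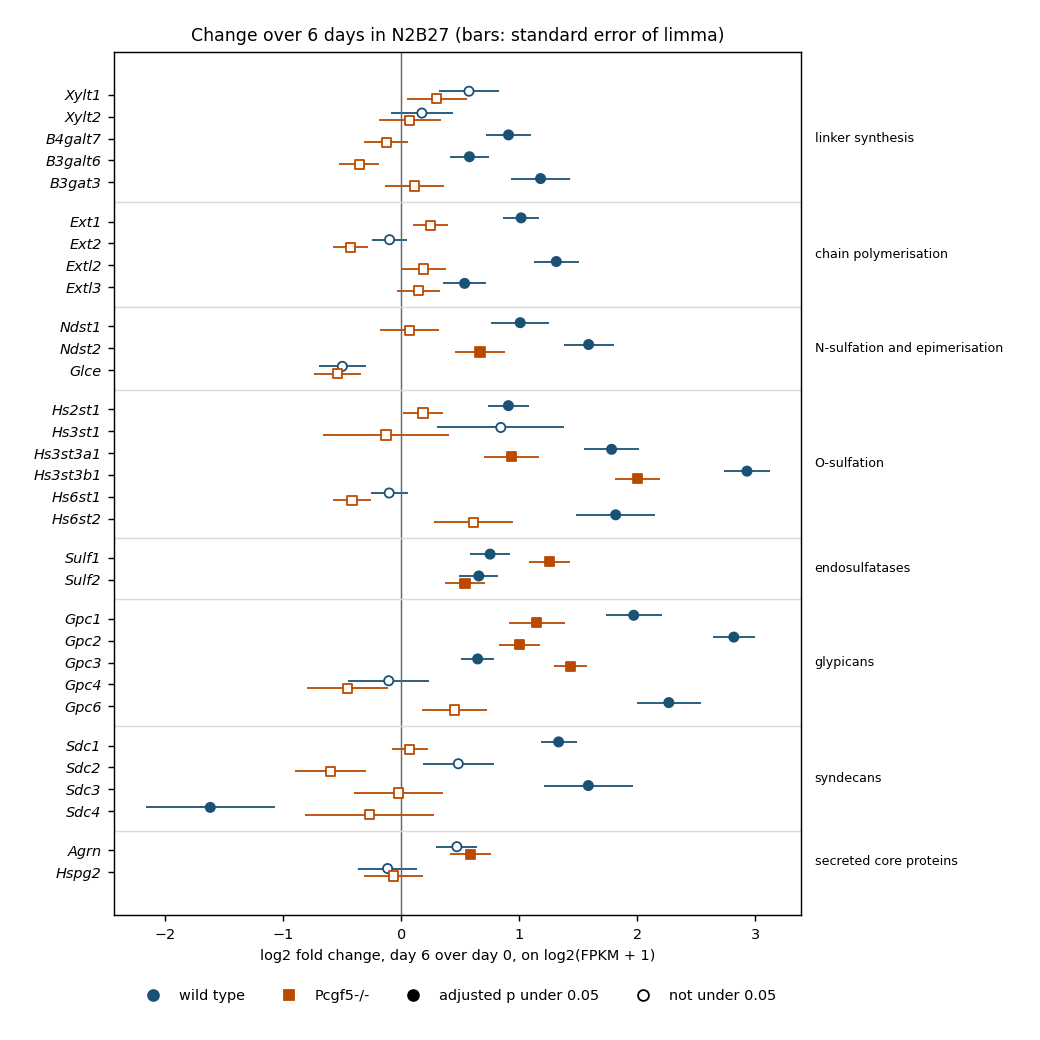
Log2 fold change of day 6 over day 0 on log2(FPKM + 1) for the 31 tested genes in wild type (circles) and Pcgf5-/- (squares), with bars of 1 standard error from limma and filled symbols at adjusted p under 0.05. Filled circles lie to the right of 0 for 20 genes and to the left for Sdc4, and filled squares lie to the right for 9 genes.

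Between the genotypes at day 0, no listed gene passed the limma threshold, where 0.333% of all tested genes did, 0.288% higher and 0.0454% lower. The samples were apart for 11 genes that were higher in Pcgf5-/- and 3 that were lower, against 34.6% and 13.3% of all tested genes. At an unadjusted p under 0.05 there were 9 of 31, against 17.4% of all tested genes. Levels were above wild type in 22 of 31 genes and below in 9, with a median log2 fold change of 0.14 against 0.11 over all tested genes. That split became 17 and 14 under quantile normalization, 15 and 16 after centring, and 15 and 16 without Pcgf5-/- day 0 replicate 2, the sample with the high feeder sum. The part of feeder RNA in the day 0 values was not tested.

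At day 6, 6 genes were lower in Pcgf5-/- than in wild type and none was higher: the glypicans Gpc6, Gpc2 and Gpc1, the syndecan Sdc1, and the sulfotransferases Ndst1 and Hs2st1. This is 19.4% of the 31, where 16.6% of all tested genes were called, 9.57% higher and 7.05% lower. The samples of the genotypes did not overlap for 22 genes that were lower in Pcgf5-/- and for 4 that were higher, against 28.8% and 33.4% of all tested genes. The log2 fold change was below 0 for 26 of 31 genes, also after quantile normalization and centring, with a median of -0.37 against 0.02 over all tested genes. All 6 genes had risen in wild type, and of the 20 that had risen 18 had a log2 fold change below 0 between the genotypes. Of all 4522 tested genes that rose in wild type, 78% had a log2 fold change below 0 and 18.4% were lower in Pcgf5-/- by limma. These comparisons share the wild-type day 6 samples, so a high value there counts in both. Each of the 6 lost its call without wild type day 6 replicate 2. The genes called lower there, Hs3st1 and Hs3st3a1, were not called with all 8 samples. Without Pcgf5-/- day 6 replicate 1, Ndst1 alone kept its call. Gpc2, Gpc6 and Sdc1 alone kept theirs without wild type day 6 replicate 1 or Pcgf5-/- day 6 replicate 2. Leaving out any single day 0 sample took the call of Ndst1. With any 1 sample left out, the log2 fold changes of the 6 genes stayed between -1.60 and -0.54. The genotypes also differed in the pluripotency, neural and feeder marker sums given above, the feeder sum being lower in Pcgf5-/- without overlap, and the part of those differences in the heparan sulfate genes was not tested.

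The effect of genotype changed from day 0 to day 6 for 3 genes, Gpc2, Gpc6 and Sdc1, all towards lower levels in Pcgf5-/- at day 6, where 3.09% of all tested genes passed, 1.34% higher and 1.75% lower. The median of this difference was -0.82 on the log2 scale against -0.10 over all tested genes. Higher genes made up 43.4% of all that passed, 57.7% after quantile normalization and 70.04% after centring, where Gpc3 passed as higher and Gpc6 no longer passed. The count was 0 without wild type day 0 replicate 2, wild type day 6 replicate 2, Pcgf5-/- day 0 replicate 2 or either Pcgf5-/- day 6 sample, 1 without wild type day 0 replicate 1 or wild type day 6 replicate 1, and 4 without Pcgf5-/- day 0 replicate 1.

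**Figure D3:**
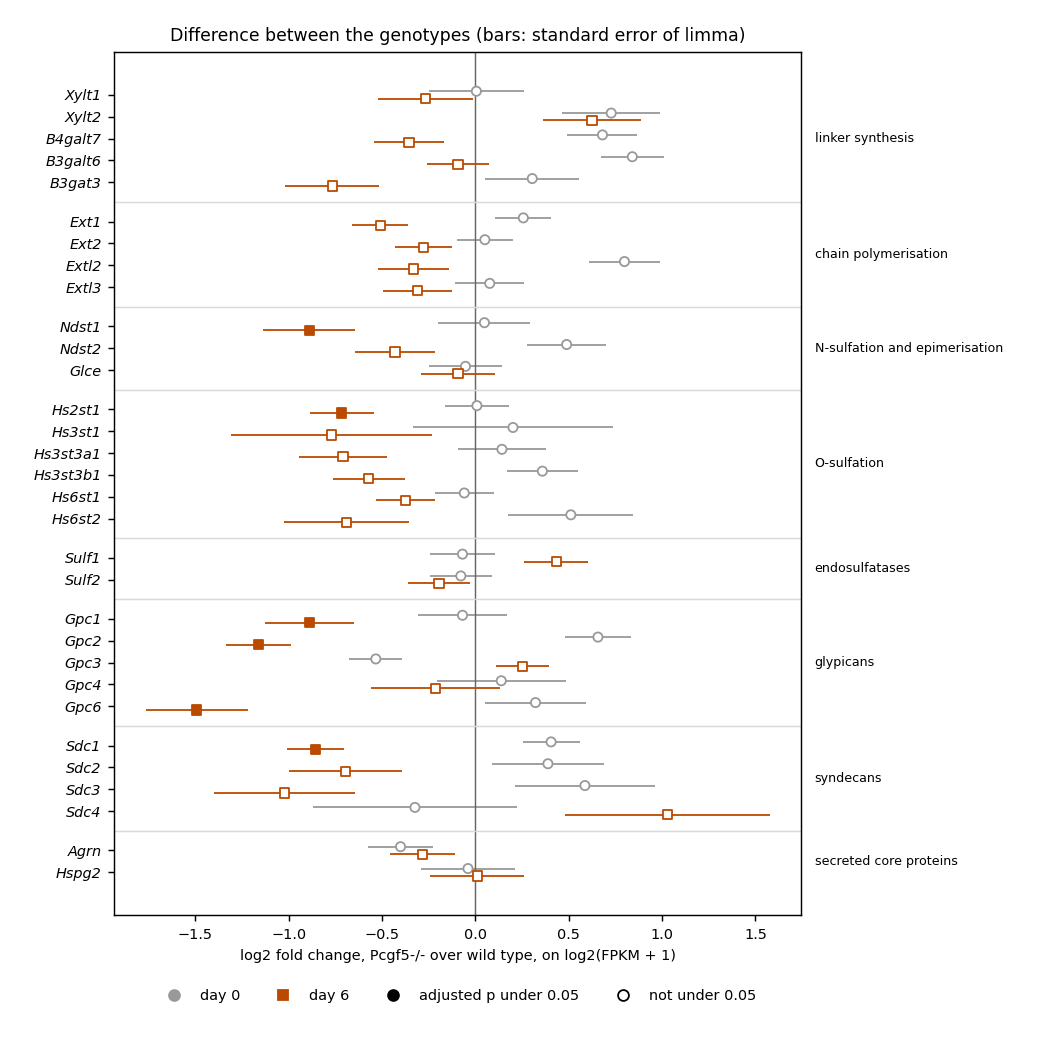
Log2 fold change of Pcgf5-/- over wild type on log2(FPKM + 1) for the 31 tested genes at day 0 (circles) and day 6 (squares), with bars of 1 standard error from limma and filled symbols at adjusted p under 0.05. At day 6, 26 squares lie left of 0, of which 6 are filled, and no day 0 circle is filled.

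Linker synthesis starts with the xylosyltransferases Xylt1 and Xylt2, which place xylose on the core protein. B4galt7 and B3galt6 then add galactoses, and B3gat3 adds the glucuronic acid that completes the linker. In wild type 3 of 5 rose, against 34.2% of all tested genes. B3gat3 went from 5.79 and 7.42 to 13.3 and 19.5 FPKM (log2 fold change 1.18 ± 0.25, SE, adjusted p = 0.00513). B4galt7 went from 2.36 and 2.79 to 5.39 and 6.02 FPKM (0.91 ± 0.19, adjusted p = 0.00447). B3galt6 went from 0.894 and 0.992 to 1.86 and 1.94 FPKM (0.58 ± 0.17, adjusted p = 0.0206). The B3galt6 call was lost under both rescalings and without any of the 4 wild-type samples, and that of B4galt7 under quantile normalization. None of the 5 passed in Pcgf5-/- over the days or between the genotypes. At day 0, B3galt6 was 2.41 and 2.54 FPKM in Pcgf5-/- (log2 fold change 0.84 over wild type, adjusted p = 0.0643) and B4galt7 4.18 and 5.31 FPKM (0.68, adjusted p = 0.115), both above the wild-type samples without overlap. B3gat3 at day 6 was 7.52 and 10.9 FPKM in Pcgf5-/- against 13.3 and 19.5 in wild type (-0.77, adjusted p = 0.0721). Xylt2 was above wild type in Pcgf5-/- on both days, by a log2 fold change of 0.73 (adjusted p = 0.2) and 0.62 (adjusted p = 0.139). Xylt2 lies on chromosome 11, where the median log2 fold change of Pcgf5-/- over wild type was 0.48 at day 0 and 0.38 at day 6 over 1086 tested genes. It was 0.41 and 0.37 on chromosome 6. On the 18 others, leaving out Y with 5 tested genes, it ranged from 0.04 to 0.12 at day 0 and from -0.06 to 0.03 at day 6. The part of this chromosome-wide difference in the Xylt2 value was not tested. Xylt1 was low, from 0.290 to 1.38 FPKM.

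Chain polymerisation is carried out by a complex of EXT1 and EXT2, while EXTL3 starts the chain and EXTL2 can cap it. Ext1 rose in wild type from 14.6 and 15.5 to 29.9 and 32.9 FPKM (1.02 ± 0.15, adjusted p = 0.000851), whereas its partner Ext2 was 18.2 and 21.0 at day 0 and 17.6 and 18.7 at day 6 (-0.10 ± 0.15, adjusted p = 0.607). Ext1 thus went from below Ext2 to above it in wild type. Extl2 rose from 1.95 and 2.92 to 7.24 and 7.65 FPKM (1.31 ± 0.19, adjusted p = 0.000787) and Extl3 by 0.54 ± 0.18 on the log2 scale (adjusted p = 0.0394), a call that was lost under both rescalings, without the filter on low values and without any of the 4 wild-type samples. In Pcgf5-/- Ext1 was likewise below Ext2 at day 0, with 16.3 and 20.1 against 18.3 and 22.5 FPKM in replicates 1 and 2. It was above Ext2 at day 6, with 20.5 and 23.0 against 14.5 and 15.1 FPKM. None of the 4 tested genes passed over the days in Pcgf5-/-. At day 6 all 4 were below wild type without overlap, as were 28.8% of all tested genes. None of the 4 passed, and Ext1 at 20.5 and 23.0 FPKM was nearest (-0.51 ± 0.15, adjusted p = 0.0518). Ext1 was called lower in 4 of 18 settings: with a pseudocount of 5, with a minimum of 5 FPKM, after quantile normalization and with the replicate block (adjusted p down to 0.0267).

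The N-deacetylase/N-sulfotransferases open the modification of the chain, and the epimerase Glce turns glucuronic into iduronic acid. Ndst1, on chromosome 18, was 4.68 and 5.24 FPKM in wild type and 4.78 and 5.55 in Pcgf5-/- at day 0, and 10.01 and 11.99 in wild type and 4.05 and 7.25 in Pcgf5-/- at day 6. Only the wild-type day 6 samples stood above the other 6. It rose in wild type (1.01 ± 0.25, adjusted p = 0.00988) and was lower in Pcgf5-/- at day 6 (-0.89 ± 0.25, adjusted p = 0.0431). The rise was lost under both rescalings and without replicate 1 of wild type at day 0 or at day 6. The genotype call held in 1 of 8 fits that left out a sample, with adjusted p up to 0.183, and was lost with a pseudocount of 0.1, without the filter and with only the day 6 samples in the fit. Ndst2 rose in both genotypes, from 1.09 and 1.29 to 5.09 and 6.11 FPKM in wild type (1.59 ± 0.21, adjusted p = 0.000539) and from 1.62 and 2.60 to 3.66 and 4.11 FPKM in Pcgf5-/- (0.67 ± 0.21, adjusted p = 0.0438). The latter call held in 1 of 8 fits that left out a sample and in 3 of 9 other settings, and it was lost under both rescalings. The share of Ndst1 in the sum of the 5 genes was 29.4% ± 0.0962 in wild type and 29.5% ± 1.41 in Pcgf5-/- at day 0, and 45.4% ± 1.90 and 33.6% ± 7.52 at day 6 (SD, n = 2). Glce was 10.03 and 11.3 FPKM at day 0 and 6.37 and 8.21 at day 6 in wild type (-0.50 ± 0.20, adjusted p = 0.0637), and its values in Pcgf5-/- overlapped these on both days.

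O-sulfation is done at the 2-O position by Hs2st1, at 6-O by the Hs6st enzymes and at 3-O by the Hs3st enzymes, whose rare mark creates binding sites for particular proteins. Hs2st1 (mm9, chr3:144094071-144233180) was 8.95 and 9.49 FPKM in wild type and 8.22 and 10.5 in Pcgf5-/- at day 0, and 19.03 and 17.3 in wild type and 11.7 and 9.73 in Pcgf5-/- at day 6. The wild-type day 6 samples were above all others, and the Pcgf5-/- samples of the 2 days overlapped. It rose in wild type (0.91 ± 0.17, adjusted p = 0.00292) and was lower in Pcgf5-/- at day 6 (-0.72 ± 0.17, adjusted p = 0.0275). This genotype call was lost without any of the 4 day 6 samples (adjusted p up to 0.129) and kept under the 9 other settings.

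Hs3st3b1 (mm9, chr11:63698195-63735786), which makes the 3-O-sulfate bound by herpes simplex virus glycoprotein D, was 0.436 and 0.291 FPKM in wild type and 0.627 and 0.874 in Pcgf5-/- at day 0, and 10.4 and 8.41 in wild type and 6.23 and 5.74 in Pcgf5-/- at day 6. No day 6 sample overlapped a day 0 sample of either genotype. On the log2(FPKM + 1) scale it had the largest rise of the list in wild type (2.93 ± 0.19, adjusted p = 1.97e-05; mean FPKM 25.9-fold higher) and rose in Pcgf5-/- (2.00 ± 0.19, adjusted p = 0.000346; 7.97-fold). At day 6 the Pcgf5-/- samples were below wild type without passing (-0.57 ± 0.19, adjusted p = 0.0766). Its neighbour Hs3st3a1 rose in both genotypes as well, from 0.0713 or less to 1.82 and 3.49 FPKM in wild type and from 0.0797 and 0.208 to 1.17 and 1.19 FPKM in Pcgf5-/-. The call in Pcgf5-/- was lost with a pseudocount of 5, after quantile normalization and in 3 of 8 fits that left out a sample (adjusted p up to 0.0912). The transcripts of these genes share 302 windows of 100 bases, 7.86% of those of Hs3st3a1 and 6.28% of those of Hs3st3b1, so the split of reads between them is uncertain. Both lie on chromosome 11, whose median is given above.

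Hs6st2 (mm9, chrX:48739814-49034779) was 1.28 and 0.984 FPKM in wild type and 1.06 and 3.47 in Pcgf5-/- at day 0, and 5.95 and 7.08 in wild type and 3.33 and 3.98 in Pcgf5-/- at day 6. The high day 0 value was that of Pcgf5-/- replicate 2, which overlapped the Pcgf5-/- day 6 samples. It rose in wild type (1.82 ± 0.33, adjusted p = 0.00255) and did not pass in Pcgf5-/- (0.61 ± 0.33, adjusted p = 0.194), where without that sample it did (1.17, adjusted p = 0.0158). Hs6st1, the most abundant O-sulfotransferase, was between 30.9 and 41.5 FPKM in both day 0 conditions, 32.2 and 34.4 in wild type and 24.9 and 26.02 in Pcgf5-/- at day 6 (-0.37 ± 0.16, adjusted p = 0.142). Its share of the summed O-sulfotransferases went from 75.7% ± 3.85 at day 0 to 45.8% ± 2.64 at day 6 in wild type, and from 71.8% ± 7.46 to 53.1% ± 1.55 in Pcgf5-/- (SD, n = 2). The sum itself was 42.3 and 53.0 FPKM at day 0 and 67.6 and 78.1 at day 6 in wild type, and 46.9 and 49.0 at day 0 and 46.0 and 50.1 at day 6 in Pcgf5-/-. Hs3st1 was 4.84 FPKM in wild type day 6 replicate 1 and 0.579 in replicate 2, within the range of the other samples (0.358 to 1.33), and passed no test with all 8 samples.

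The endosulfatases Sulf1 and Sulf2 remove 6-O-sulfates from chains at the cell surface. Both rose in both genotypes. Sulf1 went from 11.2 and 11.6 to 19.8 and 19.9 FPKM in wild type (0.75 ± 0.17, adjusted p = 0.00737) and from 10.6 and 11.03 to 22.9 and 32.2 FPKM in Pcgf5-/- (1.25 ± 0.17, adjusted p = 0.00163). It was 1 of 4 genes above wild type in Pcgf5-/- at day 6 without overlap, and did not pass (0.43 ± 0.17, adjusted p = 0.124). Sulf2 rose by 0.66 ± 0.17 in wild type (adjusted p = 0.0114) and 0.54 ± 0.17 in Pcgf5-/- (adjusted p = 0.0388), the latter in 1 of 8 fits that left out a sample and the former lost without wild type day 6 replicate 2. Centring on the median took the calls of Sulf1 and Sulf2 in wild type and of Sulf2 in Pcgf5-/-, which was also lost without the filter, with only the groups compared and without the variance trend. The sum of both at day 6, 102 and 109 FPKM in wild type and 95.3 and 109 in Pcgf5-/-, overlapped between the genotypes, while that of the O-sulfotransferases did not.

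Glypicans carry heparan sulfate on a lipid-anchored core and present WNT, Hedgehog and BMP ligands. Gpc2 (mm9, chr5:138714888-138721165), a glypican of the developing nervous system, was 2.84 and 2.03 FPKM in wild type and 4.46 and 4.29 in Pcgf5-/- at day 0, and 22.4 and 23.7 in wild type and 9.30 and 10.2 in Pcgf5-/- at day 6. The genotypes were apart on both days, with Pcgf5-/- above at day 0 and below at day 6. In the GENCODE gene models, 3221 of 8309 exon bases of Gpc2 also lie in exons of Gal3st4 on the same strand. Those models span bases 138706180 to 138721233, beyond the locus above, so how much of the overlap enters the FPKM is not known. Gal3st4 was 0.0947 to 0.179 FPKM at day 0, and 3.23 and 6.99 in wild type and 0.709 and 1.36 in Pcgf5-/- at day 6. Its part in the Gpc2 values was not tested. Gpc2 rose in wild type (2.82 ± 0.18, adjusted p = 1.61e-05; 9.47-fold in mean FPKM) and in Pcgf5-/- (1.00 ± 0.18, adjusted p = 0.0044; 2.23-fold). It was lower in Pcgf5-/- at day 6 (-1.16 ± 0.18, adjusted p = 0.00772), after 0.66 ± 0.18 at day 0 (adjusted p = 0.108), and the difference between the days passed (-1.82 ± 0.25, adjusted p = 0.0243). The day 6 genotype call was lost without wild type day 6 replicate 2 (adjusted p = 0.0552) and without Pcgf5-/- day 6 replicate 1 (0.056), and the difference between the days held in 3 of 8 fits that left out a sample (adjusted p up to 0.105).

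Gpc6 (mm9, chr14:117324519-118378751) was 1.38 and 0.895 FPKM in wild type and 1.04 and 2.46 in Pcgf5-/- at day 0, and 8.48 and 10.04 in wild type and 2.41 and 2.87 in Pcgf5-/- at day 6. The wild-type day 6 samples were above all others, and Pcgf5-/- day 0 replicate 2 overlapped the Pcgf5-/- day 6 samples. Gpc6 rose in wild type (2.27 ± 0.27, adjusted p = 0.000322; 8.13-fold in mean FPKM), did not pass in Pcgf5-/- (0.45 ± 0.27, adjusted p = 0.24), and had the largest difference of the 6 lower genes at day 6 (-1.49 ± 0.27, adjusted p = 0.012; mean FPKM 3.51-fold higher in wild type). The day 6 call was lost without wild type day 6 replicate 2 (adjusted p = 0.0728) and without Pcgf5-/- day 6 replicate 1 (0.0773). The difference between the days (-1.82 ± 0.39, adjusted p = 0.0491) held in 1 of 8 fits that left out a sample, with adjusted p up to 0.165, and in 3 of the 8 other settings. It was -1.43 without Pcgf5-/- day 0 replicate 2 (adjusted p = 0.124).

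Gpc1 (mm9, chr1:94728263-94756773), the main glypican of the adult nervous system, was 6.03 and 5.53 FPKM in wild type and 4.13 and 7.12 in Pcgf5-/- at day 0, and 22.1 and 29.5 in wild type and 13.01 and 13.6 in Pcgf5-/- at day 6. The genotypes overlapped at day 0 and not at day 6. It rose in both, by 1.97 ± 0.24 in wild type (adjusted p = 0.000327) and 1.15 ± 0.24 in Pcgf5-/- (adjusted p = 0.00864), the latter lost without Pcgf5-/- day 6 replicate 2 (adjusted p = 0.0524). It was lower in Pcgf5-/- at day 6 (-0.89 ± 0.24, adjusted p = 0.0388), a call that held in 2 of 8 fits that left out a sample (adjusted p up to 0.222) and was lost with a pseudocount of 0.1 and without the filter.

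Gpc3, known for restraining body growth, was below wild type in Pcgf5-/- at day 0 and above it at day 6, without passing on either day. It was 24.8 and 25.7 FPKM in wild type and 16.6 and 17.6 in Pcgf5-/- at day 0 (-0.53 ± 0.14, adjusted p = 0.106), and 40.0 and 40.1 in wild type and 42.5 and 54.0 in Pcgf5-/- at day 6 (0.25 ± 0.14, adjusted p = 0.26). It rose in both, by 0.65 ± 0.14 in wild type (adjusted p = 0.0059, lost after centring) and by 1.43 ± 0.14 in Pcgf5-/- (adjusted p = 0.000389), and the difference between the days did not pass (0.78 ± 0.20, adjusted p = 0.0718). Its neighbour on chromosome X, Gpc4, was between 16.2 and 35.0 FPKM with overlapping conditions. Within the summed glypicans, Gpc2 made up 4.11% ± 0.401 in wild type and 8.11% ± 2.33 in Pcgf5-/- at day 0, and 19.2% ± 1.86 and 10.6% ± 1.33 at day 6 (SD, n = 2). Gpc3 made up 33.4% ± 4.55 in wild type and 51.8% ± 5.70 in Pcgf5-/- at day 6. The summed glypicans were 53.1 and 64.5 FPKM in wild type and 45.7 and 66.5 in Pcgf5-/- at day 0, and 109 and 133 in wild type and 88.9 and 96.6 in Pcgf5-/- at day 6.

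Syndecans span the membrane and act as co-receptors and adhesion molecules. Sdc1 (mm9, chr12:8778202-8800493) was 12.7 and 11.8 FPKM in wild type and 14.5 and 18.7 in Pcgf5-/- at day 0, and 31.3 and 33.4 in wild type and 17.3 and 17.6 in Pcgf5-/- at day 6. The Pcgf5-/- samples of the 2 days overlapped, and the wild-type samples were apart. Sdc1 rose in wild type (1.33 ± 0.15, adjusted p = 0.000255) and did not pass in Pcgf5-/- (0.07 ± 0.15, adjusted p = 0.749). It was lower in Pcgf5-/- at day 6 (-0.86 ± 0.15, adjusted p = 0.0113), and the difference between the days passed (-1.26 ± 0.22, adjusted p = 0.0315). The day 6 call was lost without wild type day 6 replicate 2 (adjusted p = 0.0724) and without Pcgf5-/- day 6 replicate 1 (0.0677). The difference between the days held in 1 of 8 fits that left out a sample (adjusted p up to 0.122) and was lost without the filter.

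Sdc4 (mm9, chr2:164249747-164268688), a syndecan of focal adhesions, was 71.6 and 27.9 FPKM in wild type and 60.8 and 20.7 in Pcgf5-/- at day 0, and 18.9 and 10.2 in wild type and 30.2 and 28.7 in Pcgf5-/- at day 6. Replicate 1 was above replicate 2 by 2.56-fold and 2.94-fold in the day 0 conditions, and in Pcgf5-/- the days overlapped. It fell in wild type (-1.62 ± 0.55, adjusted p = 0.0377), and this call was lost without wild type day 0 replicate 1 (-0.96, adjusted p = 0.232), wild type day 6 replicate 2 (-1.21, adjusted p = 0.195), either Pcgf5-/- day 6 sample and without the filter. At day 6 Pcgf5-/- was above wild type without overlap (1.03 ± 0.55, adjusted p = 0.235). Sdc3, a syndecan of neural tissue, rose in wild type from 1.39 and 3.22 to 8.53 and 8.54 FPKM (1.58 ± 0.38, adjusted p = 0.00849), a call lost without wild type day 0 replicate 2. In Pcgf5-/- it was 2.30 and 5.91 at day 0 and 3.28 and 4.14 at day 6 (-0.02 ± 0.38, adjusted p = 0.969). Sdc2 passed no test. Sdc2 and Sdc3 were highest among the day 0 samples in Pcgf5-/- replicate 2 (11.7 and 5.91 FPKM), the sample with the feeder sum of 564 FPKM. Listed genes of other roles were highest there too, such as Gpc4 (35.0 FPKM) and Hspg2 (15.9 FPKM), while Sdc4 was lowest there (20.7 FPKM). The part of feeder RNA in these values was not tested.

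The mix of syndecan mRNA differed between the genotypes at day 6. Sdc1 made up 50.3% ± 4.27 of the summed syndecans in wild type and 31.2% ± 0.668 in Pcgf5-/-, and Sdc4 made up 22.4% ± 8.57 and 52.8% ± 1.46 (SD, n = 2), in each case without overlap. The shares were not tested. At day 0, Sdc4 made up 67.9% ± 11.6 in wild type and 54.6% ± 25.9 in Pcgf5-/-, which overlapped.

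**Figure D4:**
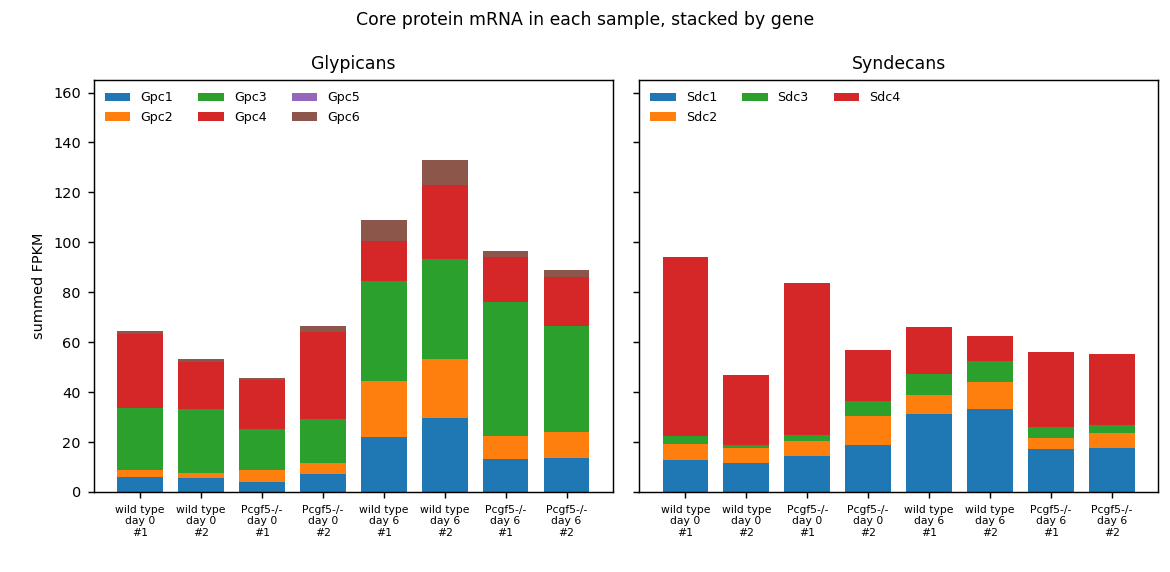
Summed FPKM of the glypicans (left) and syndecans (right) in each of the 8 samples, stacked by gene from 0. Glypican sums are 109 and 133 FPKM in wild type and 88.9 and 96.6 in Pcgf5-/- at day 6, and the Sdc4 segment takes 28.4% and 16.3% of the syndecan bar in wild type and 53.8% and 51.8% in Pcgf5-/- at day 6.

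Of the secreted core proteins, 1 rose in Pcgf5-/- and none passed in wild type. Agrn, which encodes agrin of the neuromuscular junction and basement membranes, rose in Pcgf5-/- from 9.73 and 12.5 to 16.8 and 17.4 FPKM (0.59 ± 0.17, adjusted p = 0.034) and did not pass in wild type, with 13.1 and 16.9 at day 0 and 20.8 and 21.3 at day 6 (0.47 ± 0.17, adjusted p = 0.0519). The difference between these changes was 0.12 ± 0.25 (adjusted p = 0.804), and the call in Pcgf5-/- held in 3 of 8 fits that left out a sample and in 5 of 9 other settings, and was lost under both rescalings. Hspg2, which encodes perlecan, was between 9.72 and 15.9 FPKM with overlapping conditions and passed no test.

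Other genes of heparan sulfate metabolism were taken as lists by role. For comparison with the counts of these and the following lists, 34.2% of all tested genes rose and 16.2% fell in wild type. In Pcgf5-/- 21.9% rose and 10.4% fell, and at day 6 9.57% were higher and 7.05% lower in Pcgf5-/-. Of 15 precursor supply genes, which make and transport nucleotide sugars and the sulfate donor, 3 rose and 2 fell in wild type, and 1 fell in Pcgf5-/-. At day 6, 3 were higher in Pcgf5-/- and none lower: Gnpnat1 (log2 fold change 0.89, adjusted p = 0.011), which acts in UDP-N-acetylglucosamine synthesis, Slc35d2 (1.09, adjusted p = 0.0488), a nucleotide sugar transporter, and Ugp2 (0.57, adjusted p = 0.0227), which makes UDP-glucose. Ugp2 lies on chromosome 11 and was 0.51 above wild type at day 0 (adjusted p = 0.0951), beside the chromosome medians given above. The median of the 15 at day 6 was 0.09 against 0.02 over all tested genes. Fam20b, the xylose kinase of the linker, rose in wild type (0.83, adjusted p = 0.00318) and in Pcgf5-/- (0.62, adjusted p = 0.0204), and the xylose phosphatase Pxylp1 rose in wild type (0.69, adjusted p = 0.0333).

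Of 9 tested genes of shedding and turnover, 7 rose in wild type, all of them lysosomal enzymes that degrade heparan sulfate, such as Naglu (1.63, adjusted p = 0.00238) and Hgsnat (1.45, adjusted p = 0.000498). The lysosomal genes Arsg and Sgsh also rose in Pcgf5-/-. The gene that fell in wild type was Notum (-2.72, adjusted p = 0.000554), a WNT deacylase first described as releasing glypicans, and it was the one gene of the list that differed at day 6, higher in Pcgf5-/- (1.74, adjusted p = 0.0185). Notum also lies on chromosome 11. Of the further 3-O-sulfotransferases Hs3st4, Hs3st5 and Hs3st6, Hs3st6 was tested and rose in Pcgf5-/- (0.83, adjusted p = 0.0272).

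Chondroitin sulfate is built on the same linker. Of 13 tested chondroitin sulfate enzymes 5 rose and 1 fell in wild type, 1 rose and 1 fell in Pcgf5-/-, and none passed by limma between the genotypes at day 6 (4 at an unadjusted p under 0.05, against 32.7% of all tested genes), with a median log2 fold change of -0.21. Of 13 tested other proteoglycan core proteins 4 rose and 3 fell in wild type. At day 6, Cspg5 (-1.39, adjusted p = 0.00571) and Ptprz1 (-1.16, adjusted p = 0.00934), both neural chondroitin sulfate proteoglycans, were lower in Pcgf5-/- and the cartilage core protein Acan was higher (0.86, adjusted p = 0.0396), with levels of 1.28 and 1.35 FPKM against 0.179 and 0.370. For Cspg5 the genotype effect also differed between the days (-1.55, adjusted p = 0.0315).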

How the data were processed

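Polyadenylated RNA was sequenced from 8 samples, 2 in each of 4 conditions, grouped by the genotype, time point and replicate number of their labels. Per the methods and the submitters' processing notes, the authors trimmed reads, removed short and identical reads, aligned with TopHat2 2.0.4 to mm9 and computed the deposited FPKM values per gene with Cufflinks 2.1.1. The removal of identical reads can lower abundant transcripts. Replicates were not pooled. Read counts are not given, but each deposited FPKM carries confidence bounds from Cufflinks, which cover the estimate within a sample and not the spread between samples. For the listed genes, the bounds lay a median of 42.2% of the value to either side under 2 FPKM, 12.6% from 2 to 10 FPKM and 7.64% over 10 FPKM. Cufflinks marked 371 of 24849 genes LOWDATA, none of them listed here.

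Here, limma 3.58.1 (R 4.3.3) was fitted to log2(FPKM + 1) of all 8 samples with a mean per condition, a variance trend and no replicate block, over the 13214 genes whose mean exceeded 1 FPKM in any condition. Fold changes on this scale understate those of low genes. P-values were adjusted by Benjamini-Hochberg over all 13214, with 0.05 as threshold. In 5 simulated data sets of the day 6 genotype comparison (200 genes changed, 13214 genes), 73.2% of 2-fold and 99.4% of 4-fold changes were called and 3.78% of calls were false. The changed genes were drawn only from those above a set level, with independent noise of the spread that the fit itself estimated. All other genes were given equal means in the 4 conditions, whereas the real comparison called 16.6% of all tested genes. These rates therefore do not cover low genes, effects shared by the genes of a sample or such a share of changed genes. Alternatives were pseudocounts of 0.1 and 5, no filter, a minimum of 5 FPKM, quantile normalization, median centring, a replicate block, only the groups compared, no trend, and each sample left out. Where 1 sample was left in a condition, it was taken to vary like the others.

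The genes, the further lists and the marker lists were chosen with earlier results of these data known. Values in every sample are given for genes past the threshold in a genotype comparison and for the 5 largest rises and falls among called genes in wild type, where only 1 gene fell. Loci are mm9, starts counted from 1. Promoters are from RefSeq on another build and were matched by symbol. Xylt1, Ext1, Extl3, Ndst1, Ndst4, Sulf1, Gpc1, Gpc6 and Sdc2 had no entry.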

Additional observations from a re-analysis of the deposited data

Results flagged for a closer look

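In 3 genes the effect of Pcgf5 loss differed between day 0 and day 6 by a test of that difference (limma, log2 scale): Gpc2 (-1.82, adjusted p = 0.0243), Gpc6 (-1.82, adjusted p = 0.0491) and Sdc1 (-1.26, adjusted p = 0.0315). Each lost this call in most fits that left out a sample.

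In 9 further genes every Pcgf5-/- sample lay on one side of wild type at day 0 and on the other side at day 6, and the test of the difference between the days did not pass. Gpc2 and Sdc1 changed sides in this way as well. So did 11.9% of all tested genes, counted whether or not that test passed. In 7 of the 9 genes Pcgf5-/- was above wild type at day 0 and below it at day 6. These were Extl2 (-1.13, adjusted p = 0.0622), B4galt7 (-1.04, adjusted p = 0.0721), B3galt6 (-0.93, adjusted p = 0.0704), Hs3st3b1 (-0.93, adjusted p = 0.0971), Ndst2 (-0.92, adjusted p = 0.122), Hs3st3a1 (-0.85, adjusted p = 0.176) and Ext1 (-0.77, adjusted p = 0.0855). In Gpc3 (0.78, adjusted p = 0.0718) and Sulf1 (0.50, adjusted p = 0.263) the order was the opposite. The day 0 gaps differed in width. The nearest wild-type and Pcgf5-/- samples at day 0 were 11.2 and 11.03 FPKM for Sulf1 and 0.0713 and 0.0797 for Hs3st3a1. For B3galt6 they were 0.992 and 2.41 FPKM. B3galt6 was also higher at day 6 than at day 0 in wild type and lower in Pcgf5-/-, without overlap. Of all tested genes, 4.27% had days apart in opposite directions in the genotypes.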

How the results depend on the processing

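With 2 samples a condition, most calls rest on each sample. Leaving out each sample in turn, the number of listed genes called ranged from 17 to 22 for wild type over the days, from 4 to 10 for Pcgf5-/- over the days, from 1 to 5 for the genotypes at day 6 and from 0 to 4 for the change of the genotype effect from day 0 to day 6, and it stayed at 0 for the genotypes at day 0. That difference was called in 1 gene without the filter on low values, where 19792 genes were tested, and in 5 without the variance trend, for which the cause was not tested. Besides Ext1, genes that were not called between the genotypes at day 6 became so in single settings: Hs3st3b1 with a pseudocount of 5, Sdc3 with only the groups compared, and Hs3st1 and Hs3st3a1 without wild type day 6 replicate 2. No alternative reversed the direction of a called gene. Of the values of single called genes under alternatives, 537 kept their call and 120 lost it. Over all tested genes, the count for the genotypes at day 0 went from 44 to between 0 and 102, that for the difference between the days from 408 to between 4 and 582, and that for the genotypes at day 6 from 2197 down to 297 without Pcgf5-/- day 6 replicate 1 and 502 without wild type day 6 replicate 2. The share of higher among those called went from 57.6% to between 44.0% and 65.5% for the genotypes at day 6. At day 0 it was 86.4%, while the 3 and 2 genes called after quantile normalization and centring were all lower.

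The labels give the replicate numbers no meaning beyond a number. The study's methods speak of fold changes in paired Pcgf5-/- and wild-type samples without naming the pairs. The correlation of replicate differences across genes was 0.39 between the genotypes at day 6, 0.10 at day 0 and between -0.08 and -0.02 across days. These values do not settle whether the samples were paired. The main fit took no pairing, and the replicate block was run as an alternative. With the replicate block the counts were 22, 10, 0, 7 and 2 for wild type over the days, Pcgf5-/- over the days, the genotypes at day 0, the genotypes at day 6 and the difference between the days, against 21, 9, 0, 6 and 3 without it. The precision within a sample is lowest for low genes: the Cufflinks bounds of Hs3st3a1 in wild type day 0 replicate 1 (0.0713 FPKM) ran from 0 to 0.160.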

Other observations

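The 6 genes below the level for testing still showed some values above 0. Extl1, a glycosyltransferase related to the EXT enzymes, was 0.416 and 0.510 FPKM in wild type and 0.730 and 0.858 in Pcgf5-/- at day 0, and between 0.159 and 0.283 FPKM in the day 6 samples. Ndst4 was listed at 0 in the 4 day 0 samples and at 0.118 to 0.283 FPKM in the 4 day 6 samples. Hs3st2, a neuronal 3-O-sulfotransferase, was likewise listed at 0 at day 0 and at 0.0497 to 0.266 FPKM at day 6. Ndst3 was between 0.0119 and 0.0595 FPKM, and Hs6st3 between 0 and 0.195.

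Hs3st1 differed by 8.36-fold between the wild-type day 6 samples, and in those samples the primitive endoderm markers summed to 54.5 and 8.21 FPKM, in replicate 1 and 2 respectively, as against 17.2 and 7.80 FPKM in Pcgf5-/-. The part of those cells in the Hs3st1 value was not tested.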
